A study of Arabidopsis thaliana with 6 samples.

Results

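Type-A response regulators are small nuclear and cytosolic proteins that damp the response to cytokinin, the plant hormone of cell division, leaf greening and meristem upkeep. The genes described here are ARR3 to ARR9 and ARR15 to ARR17 of Arabidopsis thaliana. They were taken by locus identifier and not by a cut on their measured values, and all 10 were found among the 27416 genes of the table. The family was chosen with earlier results of these data known, so the choice was not blind to them. Whole seedlings of the wild type, 7 days old, received either water (ddH2O, the control group, 3 libraries) or 200 nM CLE9 (3 libraries), and the labels name no transgene or mutant allele in either group. CLE9 is a member of the CLE family of short secreted peptides, named after CLAVATA3. The sources used here do not give the length of the exposure, nor whether each library stands for a separate batch of plants. The p-values thus rest on a spread between libraries that may be technical.

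Cytokinin is bound by histidine kinase receptors, which pass a phosphoryl group through histidine phosphotransfer proteins to response regulators in the nucleus. Type-B response regulators bind DNA and switch on target genes, among them the type-A genes, whose own products carry the receiver domain but no DNA-binding domain and feed back negatively on the pathway. Type-A transcripts are therefore widely used as a readout of cytokinin signalling. In the shoot meristem, ARR5, ARR6, ARR7 and ARR15 are repressed by WUSCHEL, a homeodomain factor whose gene is itself restrained by CLE peptide signalling. ARR16 and ARR17 are linked to the stomatal lineage through the transcription factor SPEECHLESS.

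Abundance was given as FPKM (fragments per kilobase of transcript per 1000000 mapped fragments), and the depth estimated from the low values was about 20.85 to 31.25 M fragments per library. A single fragment of a 1 kb transcript then contributed between 0.032 and 0.048 FPKM. Markers of both organs of a seedling were found, with 10 of 10 root markers and 8 of 8 shoot markers at or above a mean of 1 FPKM over the 6 libraries. This mean does not show that each marker reached 1 FPKM in each group. The replicate 2 library of each group departed from the others of its group. Across genes, control replicate 2 correlated at 0.879 with control replicate 1, against 0.991 between control replicates 1 and 3, and CLE9 replicate 2 at 0.840 with CLE9 replicate 1, against 0.977. Control replicate 2 correlated at 0.918 and 0.915 with CLE9 replicates 1 and 3, against 0.931 to 0.936 for the other controls with these libraries. With CLE9 replicate 2 it correlated at 0.923, against 0.740 and 0.739 for the other controls. Control replicate 2 was thus closer to every CLE9 library than to control replicates 1 and 3 (0.879 and 0.876). Counts of called genes among the type-A genes and the other cytokinin genes are therefore given with and without both replicate 2 libraries. The changes of the tested type-A genes are given in the same way.

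Type-B regulators are known to recognise the short core AGATT or AGATC, so the 250 bases before the annotated start of each gene were read for these letters on both strands. The starts and the sequence are those of RefSeq in build TAIR10.1. Each of the 10 windows held at least 1 match, as did 73.1% of the windows of 26704 protein-coding genes. ARR7 and ARR16 had 5 matches each, a number reached by 2.46% of all windows. In ARR7 the palindrome AGATCT was counted once per strand. ARR6 had 3 matches, ARR5 and ARR9 had 2 each, and the other 5 genes had 1 each. The longer form AAGATTTT was in 4 of the 10 windows and in 6.00% of all windows, and AAGATCTT was in 1 (ARR7) and in 0.82%. Both longer forms contain a short core and overlap it. The windows of 4 genes are shown because they contrast ARR7 with its closest relative ARR15, and the low, match-rich ARR16 with ARR4, the most abundant member. Each is written 5′ to 3′ on the gene's own strand, with the matches in capitals.
ARR7 (chr1:6579315-6579564, minus strand): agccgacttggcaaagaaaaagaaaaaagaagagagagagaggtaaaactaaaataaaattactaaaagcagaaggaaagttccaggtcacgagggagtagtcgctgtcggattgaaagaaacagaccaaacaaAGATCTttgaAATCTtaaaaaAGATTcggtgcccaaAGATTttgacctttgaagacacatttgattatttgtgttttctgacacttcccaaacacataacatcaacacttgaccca
ARR15 (chr1:28133026-28133275, minus strand): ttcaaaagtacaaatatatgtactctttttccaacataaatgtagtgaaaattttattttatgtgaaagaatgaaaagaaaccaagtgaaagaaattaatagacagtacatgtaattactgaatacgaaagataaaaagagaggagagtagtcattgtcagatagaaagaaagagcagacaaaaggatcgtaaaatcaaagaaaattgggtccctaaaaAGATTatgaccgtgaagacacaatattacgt
ARR16 (chr2:16969423-16969672, plus strand): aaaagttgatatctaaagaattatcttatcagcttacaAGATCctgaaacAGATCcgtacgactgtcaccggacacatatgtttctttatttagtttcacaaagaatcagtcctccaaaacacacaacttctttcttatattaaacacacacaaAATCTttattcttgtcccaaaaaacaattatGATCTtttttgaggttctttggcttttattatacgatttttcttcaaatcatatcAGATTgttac
ARR4 (chr1:3444361-3444610, minus strand): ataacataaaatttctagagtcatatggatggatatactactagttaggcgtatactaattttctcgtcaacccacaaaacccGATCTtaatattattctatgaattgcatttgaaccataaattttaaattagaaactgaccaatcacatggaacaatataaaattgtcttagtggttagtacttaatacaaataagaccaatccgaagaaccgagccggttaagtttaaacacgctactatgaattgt
These matches describe the letters in the windows, and binding was not measured.

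None of the 10 genes overlapped another gene in the table's own coordinates (TAIR10). In the RefSeq annotation ARR6 overlapped a protein-coding gene on the other strand (AT5G62910), and ARR8 and ARR9 each overlapped a long non-coding RNA gene on the other strand. The sources used here do not state whether counting was stranded. Reads in the stretches that these 3 genes share with their antisense partners thus cannot be told apart. The closest relatives form 5 pairs by coding sequence. Identity over the aligned coding bases was 84.2% for ARR16 and ARR17, 83.2% for ARR3 and ARR4, 81.4% for ARR5 and ARR6, 81.3% for ARR8 and ARR9, and 79.0% for ARR7 and ARR15. The longest identical stretch within a pair was 41 bases.

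The 10 genes spanned a wide range of levels. By mean FPKM over the 6 libraries the order was ARR4 (24.6), ARR7 (13.3), ARR9 (11.9), ARR8 (5.72), ARR6 (4.35), ARR5 (3.91), ARR15 (0.802), ARR16 (0.660), ARR3 (0.617) and ARR17 (0.0641). The order was not the same in every library. ARR4 was the highest member in 4 libraries, and ARR7 was the highest in both replicate 2 libraries. Of neighbours in this order, ARR7 and ARR9, ARR8 and ARR6, and ARR6 and ARR5 lay within the spread (SD) of each other in both groups. The order within these pairs is therefore not settled. ARR15 and ARR16 did so in the controls but not with CLE9, where every library had more ARR15 than any had ARR16. ARR4 and ARR7 did so with CLE9 but not in the controls. The order of ARR16 and ARR3 differed between the groups, with means of 0.937 and 0.422 FPKM in the controls and 0.382 and 0.813 FPKM with CLE9. The 6 genes from ARR4 to ARR9 reached a mean of 1 FPKM over all libraries and were tested, while ARR3, ARR15, ARR16 and ARR17 did not.

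**Figure D1:**
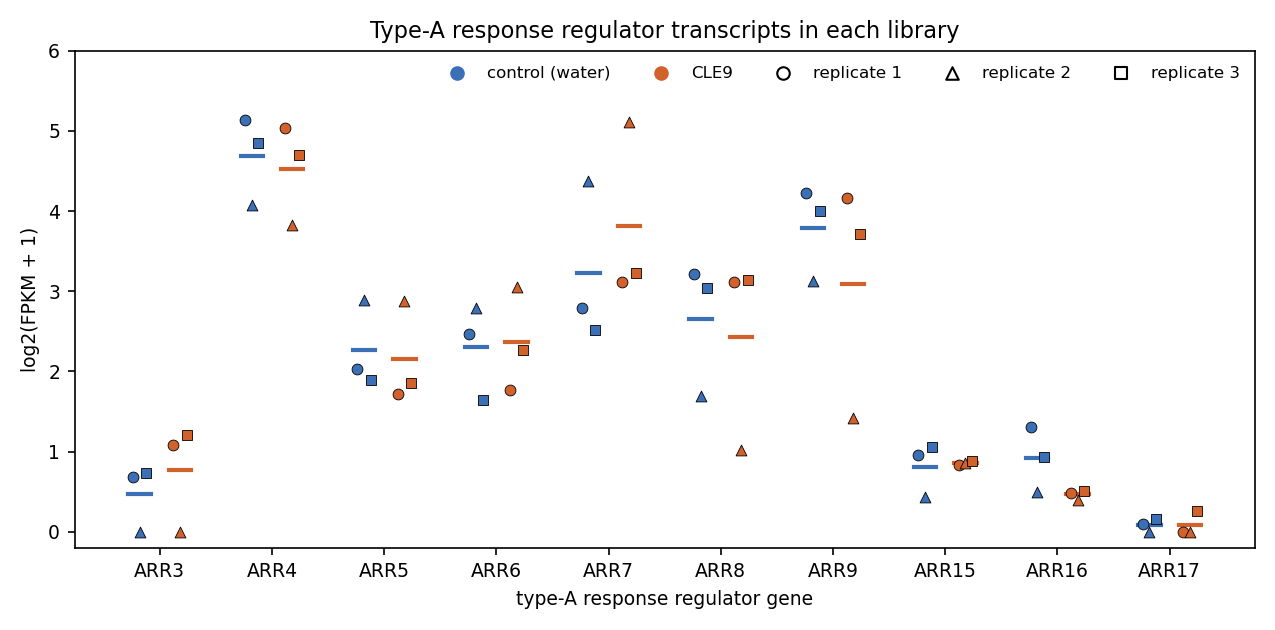
Level of each type-A gene as log2(FPKM + 1) in the 3 control libraries (blue) and the 3 CLE9 libraries (orange), with circles, triangles and squares for replicates 1, 2 and 3 and a bar at each group's mean. The triangles of ARR5, ARR6 and ARR7 lie above, and those of ARR3, ARR4, ARR8 and ARR9 below, the other symbols of the same gene.

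Treatment with CLE9 was compared with water to ask whether type-A transcripts differ in seedlings given the peptide. In a linear model on log2(FPKM + 1) with group only (limma), 0 of the 6 tested genes were called at an adjusted p under 0.05, and 0 of the 6 had an unadjusted p under 0.05. Over all 17812 genes tested this fit called 1 gene, 0.00561%, so the design gave almost no calls anywhere. With the replicate number as a block, 0 of the 6 were called, against 1.99% of all genes tested, and 1 of the 6, ARR7, had an unadjusted p under 0.05, a level reached by 20.6% of all genes tested in this fit. Without both replicate 2 libraries, 0 of the 6 were called, against 11.4% of all genes tested. The groups overlapped for all 10 genes, while they did not overlap for 16.0% of all genes tested. The median log2 change of the 6 was -0.14, beside -0.05 over all genes tested. The adjusted p-values of the 6 lay between 0.834 and 0.981 with group only, between 0.128 and 0.928 with the block, and between 0.0966 and 0.997 without both replicate 2 libraries (limma). The sign of the group-only change turned for each of the 6 genes when 1 library was left out, most widely for ARR7 (-0.055 without CLE9 replicate 2 and 1.164 without control replicate 2) and ARR9 (0.15 without CLE9 replicate 2 and -1.23 without CLE9 replicate 1). A p above the threshold does not show that a gene was unaffected. The 95% intervals of the group-only changes were wide, and each is given below beside the narrower interval of the blocked fit. The block takes libraries of the same replicate number as pairs. For numbers 1 and 3 this is uncertain, since crossed pairs correlated higher (0.664 and 0.620) than same-numbered ones (0.545 and 0.583).

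ARR4 (AT1G10470, chr1:3442327-3443957), whose protein is known to bind the light receptor phytochrome B, was at 34.1, 15.9 and 27.7 FPKM in control replicates 1, 2 and 3 and at 31.9, 13.2 and 25.0 FPKM in the CLE9 libraries of the same numbers. Each CLE9 library was slightly below the control of its number, and both groups covered nearly the same range. CLE9 replicate 1 was above control replicate 3, so the sign in every pair rests on the numbering. The group means were 25.9 ± 9.23 and 23.4 ± 9.46 FPKM (SD, n = 3 each). The log2 change was -0.16 ± 0.41 (SE, limma adjusted p = 0.942). The 95% interval of this change was -1.16 to 0.84 with group only and -0.53 to 0.21 with the block. Without both replicate 2 libraries the change was -0.12 ± 0.18 (SE, limma adjusted p = 0.730).

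ARR3 (AT1G59940, chr1:22065617-22066973), the nearest relative of ARR4, was far lower. It was at 0.608 and 0.658 FPKM in control replicates 1 and 3 and at 1.12 and 1.32 FPKM in CLE9 replicates 1 and 3, and it was listed at 0 in both replicate 2 libraries. The CLE9 libraries of replicates 1 and 3 were above every control library, while CLE9 replicate 2 was not, so the groups overlapped. When genes were tested without a filter on low values, the adjusted p was 0.889 with group only (limma) for a log2 change of 0.29.

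ARR8 and ARR9 encode regulators of a branch whose transcripts are known to respond little to added cytokinin, unlike those of ARR5, ARR6, ARR7 and ARR15. ARR9 (AT3G57040, chr3:21109614-21111432) was at 17.8, 7.75 and 15.0 FPKM in water and at 16.9, 1.67 and 12.1 FPKM under CLE9. It was lower with CLE9 in each of the 3 same-numbered pairs, with differences of -0.07, -1.715 and -0.29 log2 units. Most of the difference thus came from the replicate 2 libraries. CLE9 replicate 1 was above control replicate 3, so the sign in all 3 pairs rests on the numbering. The log2 change was -0.69 ± 0.75 (SE, limma adjusted p = 0.834) and was -0.18 ± 0.19 without both replicate 2 libraries. Its 95% interval was -2.53 to 1.14 with group only and -1.57 to 0.19 with the block. ARR8 (AT2G41310, chr2:17221933-17224427) was at 8.30, 2.25 and 7.23 FPKM in water and at 7.68, 1.04 and 7.81 FPKM under CLE9. In replicates 1 and 3 the groups were at about the same level, and replicate 2 was the lowest library of each. Its log2 change was -0.23 ± 0.70 (SE, limma adjusted p = 0.955), with a 95% interval of -1.94 to 1.49 with group only and of -0.72 to 0.27 with the block. Without both replicate 2 libraries it was -0.001 (95% interval -0.33 to 0.33).

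ARR5 and ARR6 are immediate-early cytokinin response genes, and the ARR5 promoter is a common cytokinin reporter. ARR5 (AT3G48100, chr3:17758427-17760874) was at 3.07, 6.41 and 2.70 FPKM in water and at 2.30, 6.37 and 2.61 FPKM under CLE9. The values of the same replicate number were close to each other, and the difference between replicate numbers was larger than that between groups. The log2 change was -0.12 ± 0.41 (SE, limma adjusted p = 0.961), with a 95% interval of -1.13 to 0.90 with group only and of -0.49 to 0.26 with the block. This change was -0.17 ± 0.14 without both replicate 2 libraries (SE, limma adjusted p = 0.514). ARR6 (AT5G62920, chr5:25252386-25254212) was at 4.54, 5.94 and 2.13 FPKM in water and at 2.41, 7.31 and 3.81 FPKM under CLE9. It was lower with CLE9 in pair 1 and higher in pairs 2 and 3, by -0.70, 0.26 and 0.62 log2 units. The log2 change was 0.06 ± 0.43 (SE, adjusted p = 0.981, limma), with a 95% interval of -0.997 to 1.115 with group only and of -0.65 to 0.77 with the block. This change was -0.041 ± 0.31 without both replicate 2 libraries (SE, limma adjusted p = 0.949).

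ARR7 (AT1G19050, chr1:6577833-6579178), which with ARR15 acts in meristem establishment and in the cold response, was at 5.93, 19.7 and 4.70 FPKM in water and at 7.64, 33.5 and 8.39 FPKM under CLE9. Of the 10 genes, 1, ARR7, was above its control in each of the 3 pairs. Its groups overlapped because control replicate 2 exceeded CLE9 replicates 1 and 3. Over all genes tested, 19.8% were likewise higher in all 3 pairs. The differences in pairs 1, 2 and 3 were 0.32, 0.73 and 0.72 log2 units. The log2 change was 0.59, with an SE of 0.72 with group only (limma adjusted p = 0.855) and of 0.16 with the block (limma adjusted p = 0.128). The 95% interval was -1.16 to 2.34 with group only and 0.19 to 0.99 with the block, before adjustment for the number of genes. Without both replicate 2 libraries the change was 0.52 ± 0.15 (SE, limma adjusted p = 0.0966), in a comparison of 2 libraries with 2.

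ARR15 (AT1G74890, chr1:28131590-28132710), the nearest relative of ARR7, did not share its pattern across libraries. It was at 0.935, 0.346 and 1.09 FPKM in water and at 0.785, 0.814 and 0.842 FPKM under CLE9. The CLE9 libraries lay close together and within the range of the controls, and neither replicate 2 library was above all of the others. Without a filter on low values its log2 change of 0.04 had an adjusted p of 0.967 (limma).

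ARR16 (AT2G40670, chr2:16970230-16971234) was at 1.49, 0.415 and 0.911 FPKM in water and at 0.401, 0.318 and 0.428 FPKM under CLE9. It was lower with CLE9 in all 3 pairs, and all CLE9 libraries lay at or near the level of control replicate 2, the lowest control. The groups overlapped through that library alone, since the other controls were above every CLE9 library. Its means were 0.937 ± 0.536 and 0.382 ± 0.0574 FPKM (SD, n = 3 each), and the difference by pair was -0.83, -0.10 and -0.42 log2 units. Without a filter on low values the log2 change of -0.45 had an adjusted p of 0.676 with group only and of 0.258 with the block (limma), and the pseudocount of 1 understates changes at this level. Over all genes tested, 26.0% were lower in all 3 pairs, as were 4 of the 10 type-A genes (ARR4, ARR5, ARR9 and ARR16). With replicates 1 and 3 crossed, ARR4 and ARR9 would not be lower in every pair. ARR17 (AT3G56380, chr3:20905480-20906368) was at 0.0730, 0 and 0.117 FPKM in water and at 0, 0 and 0.194 FPKM under CLE9, where 0 is the listed value. These values correspond to a few fragments at most per library, so no difference was detectable at this depth.

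**Figure D2:**
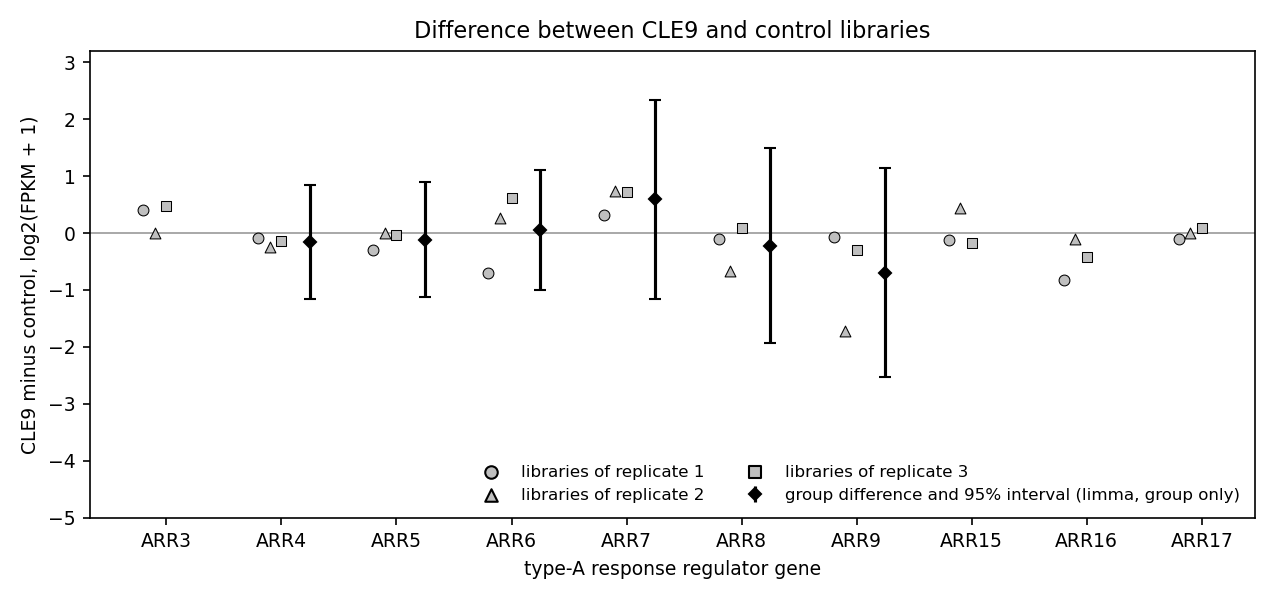
Difference between CLE9 and control on the log2(FPKM + 1) scale for each type-A gene, with grey symbols for the libraries of replicates 1, 2 and 3 and, for the 6 tested genes, a black diamond with the 95% interval of the group-only fit. All 6 intervals include 0, and the 3 grey symbols of ARR7 are all above it.

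For the 6 tested genes and ARR3 the larger differences lay between replicate 2 and the other replicate numbers. ARR5, ARR6 and ARR7 were each higher in both replicate 2 libraries than in any of the other 4, and ARR3, ARR4, ARR8 and ARR9 were each lower in both. ARR15, ARR16 and ARR17 were neither higher nor lower in both. For the 6 tested genes this makes 3 above and 3 below. Over all genes tested 13.0% were above and 35.2% below in this way, 48.2% together. The counts of 3 and 3 were the same after quantile and after median scaling. ARR7 in control replicate 2 was 1.72 log2 units above the mean of control replicates 1 and 3, and in CLE9 replicate 2 it was 1.94 above the mean of the other CLE9 libraries. The corresponding values were 0.93 and 1.09 for ARR5 and 0.74 and 1.04 for ARR6. They were -0.91 and -1.04 for ARR4, -1.43 and -2.10 for ARR8, and -0.99 and -2.52 for ARR9. The median of all genes tested was -0.19 and -0.23. These are descriptions of 2 libraries and were not tested.

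Other markers moved with replicate 2 as well. Their lists were written with earlier results of these data known, so the counts describe these libraries and are no independent support. Of the 11 tested genes known to be induced by touch, wounding or cold, 11 were higher in both replicate 2 libraries than in the other 4. Over all genes tested 13.0% were. The medians of this list were 3.82 and 2.81 log2 units above the other libraries of their group. Of 10 root markers 8 were lower in both, against 35.2% of all genes tested, with medians of -1.33 and -2.21. The summed level of the root markers was 66.5 and 46.2 FPKM in control and CLE9 replicate 2, and between 119.1 and 166.4 FPKM in the other 4 libraries. Of 8 shoot markers 0 were outside the range of the other 4 libraries in both replicate 2 libraries. Their medians departed by -0.13 in control replicate 2 and by -0.59 in CLE9 replicate 2, and their summed level was 16230 FPKM in CLE9 replicate 2 and between 28130 and 39360 FPKM in the other 5 libraries. No marker of the 3 lists was at 0 in all libraries. The part of these differences in the type-A values was not tested. The cause of the lower root marker levels was not tested either. In whole seedlings fewer root cells and less RNA per root cell, among other causes, cannot be told apart. The summed level of the touch list was also higher in CLE9 replicates 1 and 3 (1653 and 1582 FPKM) than in control replicates 1 and 3 (784.7 and 731.3 FPKM).

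**Figure D3:**
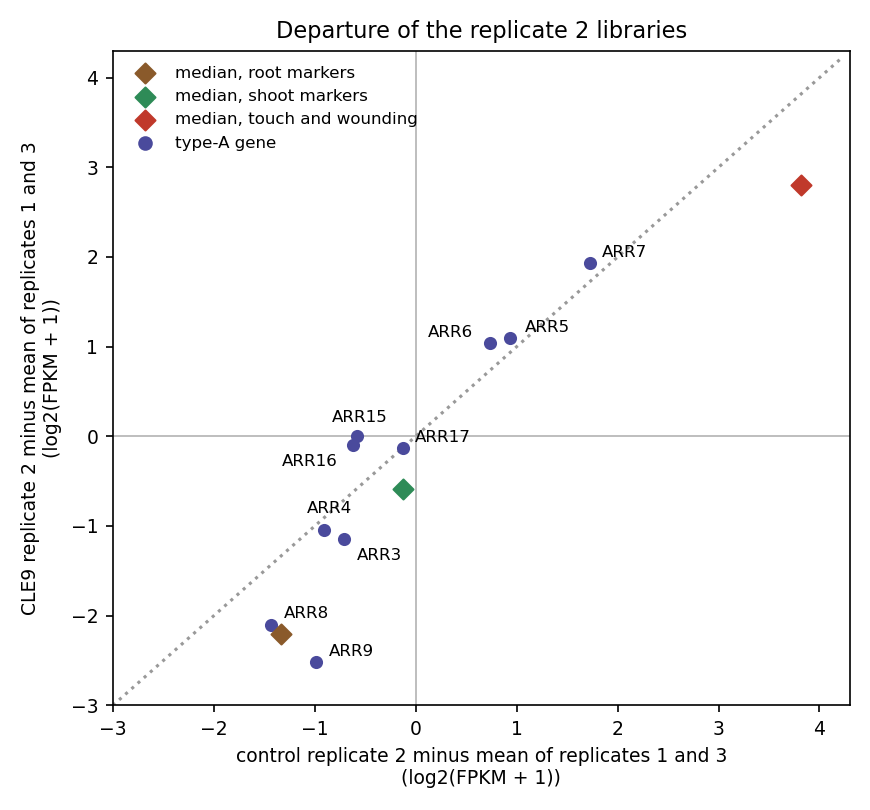
Departure of replicate 2 from the mean of replicates 1 and 3 in the control group (horizontal axis) and in the CLE9 group (vertical axis), on the log2(FPKM + 1) scale, for each type-A gene (circles) and for the medians of 3 marker lists (diamonds). ARR5, ARR6 and ARR7 lie in the upper right, with smaller departures than the touch list on both axes. ARR8 and ARR9 lie in the lower left near the root list. The dotted line marks equal departure in both groups.

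Because FPKM is scaled to length, the levels of the 10 genes can be added. The sum was 76.8, 58.7 and 62.3 FPKM in water and 71.2, 64.2 and 62.5 FPKM under CLE9, means of 65.9 ± 9.56 and 65.9 ± 4.59 FPKM (SD, n = 3 each). The CLE9 sums lay within the wider range of the controls. The makeup of the sum was less even. In the 4 libraries of replicates 1 and 3, ARR4 held 39.98% to 44.9% of it and ARR7 held 7.55% to 13.4%. In the replicate 2 libraries ARR4 held 27.03% (control) and 20.6% (CLE9), and ARR7 held 33.6% and 52.1%. ARR5, ARR6 and ARR7 together held 15.3% to 23.7% in replicates 1 and 3, and 54.6% and 73.4% in replicate 2. The ratio of ARR7 to ARR4, which does not depend on the scaling of a library, was 0.174, 1.24 and 0.170 in water and 0.239, 2.53 and 0.336 with CLE9. In each of the 3 pairs the CLE9 library had the higher ratio, and the groups overlapped through control replicate 2.

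**Figure D4:**
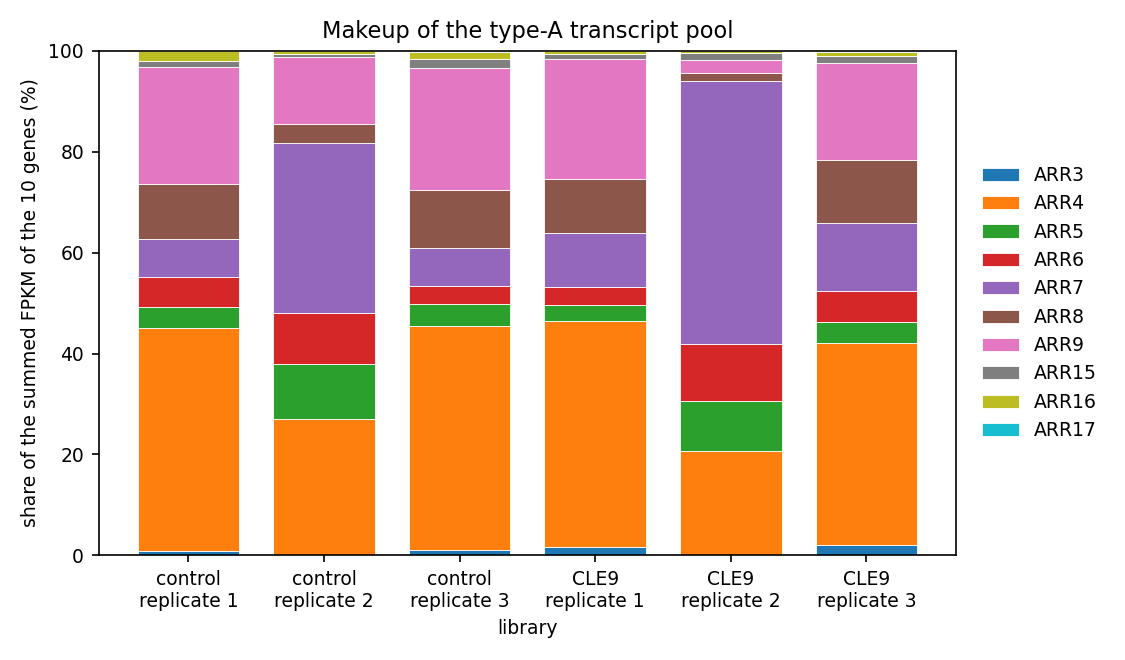
Share of each type-A gene in the summed FPKM of the 10 genes, in percent, as 1 stacked bar per library. ARR4 (orange) is the largest part in replicates 1 and 3 of both groups and ARR7 (purple) the largest in replicate 2, at 33.6% in the control and 52.1% in the CLE9 library.

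The other steps of the pathway were described from lists of 70 genes, of which 46 were tested. With group only (limma), 0 of the 46 were called and 8 had an unadjusted p under 0.05, a level reached by 8.90% of all genes tested. With the block 2 rose and 1 fell, beside 1.75% and 0.247% of all genes tested. Without both replicate 2 libraries 6 rose and 5 fell, beside 8.41% and 2.95%. The median log2 change of the 46 was -0.08. The groups did not overlap for 6 of the 46, of which 2 were higher and 4 lower with CLE9, and over all genes tested the shares were 8.51% and 7.47%.

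At the head of the pathway, the receptor gene AHK2 was at 13.2, 9.45 and 13.6 FPKM in water and at 6.24, 5.75 and 6.61 FPKM under CLE9. Every CLE9 library was below every control. The log2 change was -0.85 ± 0.18 (SE), with a limma adjusted p of 0.282 with group only, 0.0592 with the block and 0.00756 without both replicate 2 libraries. The receptor gene AHK3 was at 32.9, 29.7 and 30.5 FPKM in water and at 22.3, 24.9 and 23.8 FPKM under CLE9, and its groups did not overlap either. Its log2 change was -0.38 ± 0.15 (SE, limma adjusted p = 0.535, 0.256 with the block and 0.0853 without both replicate 2 libraries). AHK4, the receptor of the root vasculature, was at 2.74, 0.511 and 3.17 FPKM in water and at 2.95, 0.219 and 2.84 FPKM under CLE9. Like ARR8 and ARR9 it was lowest in replicate 2 of both groups, and it is given here after its values were seen. The 3 receptors together were at 48.9, 39.6 and 47.3 FPKM in water and at 31.5, 30.9 and 33.3 FPKM under CLE9, without overlap between the groups.

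Among the phosphotransfer proteins, which carry the signal to the nucleus, 0 of 5 tested genes were called with group only or with the block. AHP3 had a log2 change of -0.13 ± 0.16 and AHP1 one of -0.55 ± 0.65 (SE). Among the type-B regulators, which activate the type-A genes, 0 of 6 tested were called in any of the 3 fits. The most abundant, ARR1, was at 92.1, 58.9 and 85.8 FPKM in water and at 70.7, 34.4 and 76.1 FPKM under CLE9, a log2 change of -0.44 ± 0.37, and ARR12 had one of -0.28 ± 0.26 (SE). Of the 6, 5 were lower in both replicate 2 libraries than in the other 4, as were 35.2% of all genes tested. The 2 type-C regulators and 4 of the 11 type-B regulators were listed at 0 in all libraries.

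LOG5, which encodes an enzyme that frees active cytokinin from its nucleotide form, was at 0.628, 1.98 and 0.864 FPKM in water and at 2.48, 6.08 and 3.38 FPKM under CLE9. The groups did not overlap, and the pair differences were 1.09, 1.25 and 1.23 log2 units. LOG5 rose with the block (log2 change 1.19, adjusted p = 0.0410) and without both replicate 2 libraries (adjusted p = 0.0135), but was not called with group only (adjusted p = 0.406, limma). The more abundant LOG8 and LOG1 had log2 changes of -0.20 ± 0.18 and -0.26 ± 0.43 (SE). In the synthesis list 0 of 4 tested genes were called in any of the 3 fits, with changes of -0.27 ± 0.18 for IPT9 and 0.09 ± 0.33 for IPT3.

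Among the genes of cytokinin removal, UGT85A1, whose enzyme can attach glucose to zeatin, was at 29.6, 77.9 and 31.4 FPKM in water and at 72.9, 192.4 and 82.3 FPKM under CLE9. It was higher in every pair by nearly the same amount, 1.28, 1.29 and 1.36 log2 units, while replicate 2 was the highest library of each group. UGT85A1 rose with the block (log2 change 1.31, limma adjusted p = 0.0423) and was not called with group only (adjusted p = 0.553). Its log2 change without both replicate 2 libraries was 1.32 (limma adjusted p = 0.00340). The groups overlapped, since control replicate 2 was above CLE9 replicate 1. UGT76C2, of cytokinin N-glucosylation, had a change of 0.35 ± 0.26 (SE). The cytokinin oxidase gene CKX4, itself induced by cytokinin, was at 0.860, 9.46 and 0.501 FPKM in water and at 2.95, 7.96 and 4.27 FPKM under CLE9. It was high in control replicate 2, and its log2 change was 0.89 ± 0.78 (SE, limma adjusted p = 0.794, and 0.0105 without both replicate 2 libraries). CKX6 had a change of 0.12 ± 0.20 (SE). Of the 5 tested oxidase genes 0 were called with group only or with the block, and of the 4 tested glucosylation genes 1 was called with the block.

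In the list of transporters 0 of 5 tested genes were called with group only or with the block. The purine permease gene PUP14 was at 133.2, 922 and 105.1 FPKM in water and at 138, 1494 and 421 FPKM under CLE9. Its log2 change was 0.91 ± 1.15 (SE, limma adjusted p = 0.8635, and 0.273 without both replicate 2 libraries). ENT3 had a log2 change of 0.63 ± 0.32 (SE, limma adjusted p = 0.653, and 0.0120 without both replicate 2 libraries). Among the cytokinin response factors, of the AP2/ERF family, 0 of 6 tested genes were called in any of the 3 fits. CRF2 was at 5.36, 3.75 and 5.32 FPKM in water and at 6.08, 8.70 and 6.89 FPKM under CLE9, without overlap (log2 change 0.50 ± 0.20 (SE), limma adjusted p = 0.557), and CRF6 had a change of -0.22 ± 0.33 (SE).

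IAA3, an auxin response repressor gene that type-B regulators activate in the root, was at 18.5, 12.6 and 16.9 FPKM in water and at 8.10, 5.34 and 9.28 FPKM under CLE9. The groups did not overlap, and IAA3 fell with the block (log2 change -1.002, limma adjusted p = 0.0482, against 0.328 with group only and 0.0105 without both replicate 2 libraries). Of the other genes induced by cytokinin, the expansin gene EXPA1 had a change of -0.05 ± 0.53 and the cyclin gene CYCD3;1 one of 0.35 ± 0.41 (SE). The blocked calls of LOG5, UGT85A1 and IAA3 were lost without pair 1 or without pair 3, and with a pseudocount of 0.1 or without a filter on low values. In the same fits their log2 changes were 1.17 to 1.75 for LOG5, 1.28 to 1.33 for UGT85A1 and -1.102 to -0.952 for IAA3.

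Without both replicate 2 libraries, 5 further genes were called that the rule for named genes did not take, and they are given here after their values were seen. ABCG14, which encodes the exporter that loads root cytokinin for transport to the shoot, was at 10.4, 3.51 and 10.7 FPKM in water and at 2.28, 2.68 and 4.22 FPKM under CLE9 (limma adjusted p = 0.0153 without both replicate 2 libraries and 0.136 with the block). The groups overlapped through control replicate 2, which lay within the range of the CLE9 libraries. CKX5, a cytokinin oxidase gene, was at 1.22, 4.51 and 0.886 FPKM in water and at 3.94, 5.83 and 4.74 FPKM under CLE9, with control replicate 2 again within their range (adjusted p = 0.00594 and 0.127 in the same fits). UGT73C5, whose enzyme also acts on brassinosteroids, was lower in every CLE9 library than in any control (adjusted p = 0.00651 and 0.0556, limma). AHP5 was higher and CKX1 lower in that comparison (limma adjusted p = 0.0304 and 0.0459), but both went the other way in pair 2.

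**Figure D5:**
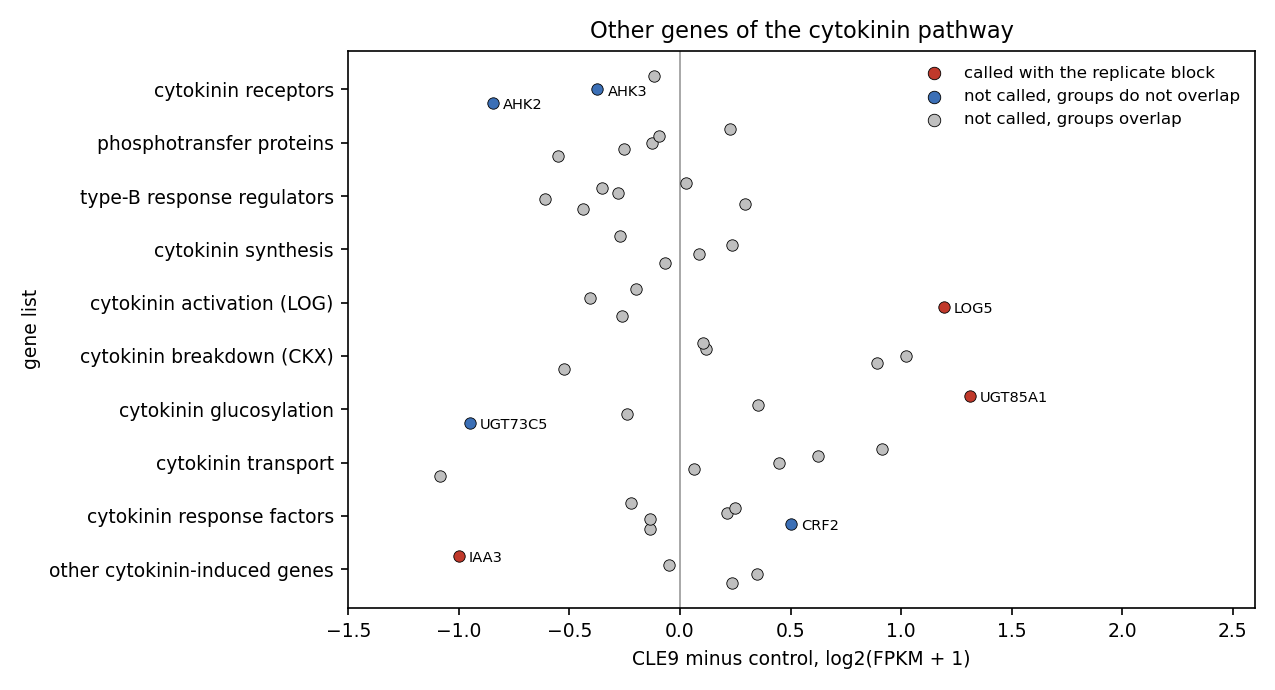
Log2 change (CLE9 minus control, log2(FPKM + 1)) of the 46 tested genes of the other cytokinin lists, 1 point per gene. LOG5, UGT85A1 and IAA3 (red) were called with the replicate block, AHK2, AHK3, UGT73C5 and CRF2 (blue) were not called but had groups without overlap, and the remaining points are grey.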

How the data were processed

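Total RNA (TRIzol) was turned into NEBNext Ultra libraries, per the labels' protocols. The authors deposited FPKM for each gene and library, per the file headers. HISAT2 2.0.5, StringTie 1.3.3b, featureCounts 1.5.0-p3 and build TAIR10 are named without roles, per the submitters' processing notes, and the tool that gave the FPKM is not stated there.

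Values were analysed as log2(FPKM + 1), and genes whose mean over the 6 libraries reached 1 FPKM entered limma 3.58.1 under R 4.3.3 (empirical Bayes with a mean-variance trend, two-sided, Benjamini-Hochberg adjustment over all genes tested, called at an adjusted p under 0.05). Intervals are at 95% and unadjusted. The fits were also run on simulated data, with random noise and a random term for each gene and replicate number. That simulation held no departing replicate 2, so it does not show how the fits perform on these libraries. The members, gene lists and alternatives were chosen with earlier results of these data known.

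The labels give both groups the same replicate numbers. Deviations from the group means correlated at 0.545, 0.743 and 0.583 for the same-numbered libraries 1, 2 and 3, all over 0.1, so the numbers were taken as pairs. The crossed pairs of numbers 1 and 3 correlated higher still (0.664 and 0.620), so the pairing rests largely on replicate 2.

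Depth was estimated from the steps of low values in 1604 single-exon genes, where 39.6% to 51.6% of values fell within 0.1 fragments of a whole number (20% by chance). This gives depth only roughly and does not allow whole reads to be restored. Named in each other cytokinin list were the 2 most abundant tested genes and every gene called with group only or with the block. Upstream windows and coding sequences were read from RefSeq (TAIR10.1) with Biopython 1.88. Protein sequences were not used here.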

Additional observations from a re-analysis of the deposited data

How the results depend on the processing

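The number of type-A genes called was 0 in every fit run. With group only 1 gene was called over all genes, against 2 after quantile normalization, 355 with the replicate block, 2024 without both replicate 2 libraries, and between 0 and 204 when 1 library was left out (204 without control replicate 2, and 0 without control replicate 1 or either of CLE9 replicates 1 and 3). Of the other cytokinin genes, 3 were called with the replicate block and 11 without both replicate 2 libraries, against 0 with group only. Fits chosen after seeing the data combined the block with another choice. They called 0 genes without pair 1 or without pair 3, 1870 without pair 2 (10 of them other cytokinin genes), 3 when no filter was used and 2 at a pseudocount of 0.1. The replicate block changed no call of a type-A gene.

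When 1 library was left out, the log2 change ranged from -0.46 to 0.19 for ARR4, from -0.48 to 0.20 for ARR5, from -0.29 to 0.36 for ARR6, from -0.055 to 1.164 for ARR7, from -0.70 to 0.48 for ARR8 and from -1.23 to 0.15 for ARR9. It ranged from -1.003 to 0.17 for AHP1, from -0.21 to 0.40 for IPT3, from -0.59 to 0.22 for LOG1, from -0.042 to 0.21 for CKX6, from -0.47 to 0.11 for CRF6 and from -0.59 to 0.30 for EXPA1. Without both replicate 2 libraries, with or without the block, the sign also turned for ARR6 (-0.041), LOG1 (0.27) and CRF6 (0.017). With the block it turned without pair 3 for ARR6 (-0.22) and IPT3 (-0.12), and without pair 1 for EXPA1 (0.46). The cause was not tested. ARR3, ARR15, ARR16 and ARR17 lie near or below 1 FPKM, where few fragments limit what can be seen.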
